A study of Mus musculus with 23 samples.

Results

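Cultured cells of the SCCVII line were compared with cultured cells of the HPV-negative MEER line by RNA sequencing. The comparison takes 6 of the 23 libraries of the series, those that the labels give as tumour cells of these models, 3 for each line. SCCVII is a squamous cell carcinoma line carried in C3H/HeJ mice, and MEER cells are transformed mouse oropharyngeal epithelial cells carried in C57/Bl6 mice, here the variant without human papillomavirus (HPV). Line and strain change together, so they cannot be told apart, and the labels name no treatment for either. How the HPV-negative MEER cells were transformed is not given in the sources used here. The protocol describes the libraries as aliquots of 1 cultured line each, although the labels call each a biological replicate, so p-values measure the spread between aliquots, which may be technical. The other 17 libraries come from HPV-positive MEER tumour cells, from macrophages sorted out of subcutaneous tumours of the 3 models and pooled over several mice, and from colonies grown out of such macrophages. They enter only where named.

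Squamous carcinoma arises from stratified epithelium, whose basal cells make keratins 5 and 14, the transcription factor p63 and desmosomes, the junctions that hold keratin filaments of neighbouring cells together. Tumour cells that leave this state lose desmosomes and E-cadherin and can make vimentin, fibronectin and fibrillar collagens, which are products of mesenchyme. Lines of this kind are used in mice with an intact immune system, so their antigen presentation and secreted cytokines are part of what the host meets.

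Levels are given as CPM, a gene's count scaled to a fixed library total with trimmed-mean factors over all 23 libraries. A gene was called when its adjusted p was under 0.05 in edgeR's quasi-likelihood test with Benjamini-Hochberg adjustment over all 14396 genes tested, and every adjusted p below comes from that test. The log2 changes are SCCVII over HPV-negative MEER, with their standard error (SE). For a gene without a read in a line, the change is a limit computed with 3 counts in that line's pooled libraries, and for a gene with 1 to 3 reads only levels are given. The SCCVII libraries held 27596445 to 34938060 counts and the HPV-negative MEER libraries 27944725 to 36324706. Between aliquots, a chi-square of counts per gene was 3.23 to 5.53 in the SCCVII line and 40.7 to 82.2 in the HPV-negative MEER line, so both sets differed by more than sampling noise and the HPV-negative MEER aliquots differed from each other far more. Markers of leucocytes and macrophages were low in both lines: the 6 leucocyte genes summed to 9.74 to 11.6 CPM in SCCVII libraries and 6.39 to 11.4 CPM in HPV-negative MEER libraries, and the 8 macrophage genes summed to 17 to 23.4 and 7.94 to 9.27 CPM. Of 5 leucocyte genes tested, 3 were higher in SCCVII cells and 1 lower. Ptprc, the CD45 gene, had 0.912 to 1.3 CPM in SCCVII cells against 0.0735 to 0.117 CPM (log2 3.44, SE 0.54), Lcp1 4.3 to 5.18 against 0.294 to 0.889 CPM (2.92, SE 0.50) and Laptm5 2.25 to 3.01 against 0.22 to 0.554 CPM (2.79, SE 0.44). Cd53, a tetraspanin gene of leucocytes, had 1.37 to 1.43 CPM against 4.77 to 10.4 CPM (log2 -2.52, SE 0.32). Of the macrophage genes, 2 of 6 tested were higher in SCCVII cells and Adgre1, the F4/80 gene, was too low to test; the part of these transcripts in other results, such as the immune genes below, was not tested.

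Most genes differed between the lines. Of 14396 genes tested, 58.8% were called: 3919 were higher in SCCVII cells (27.2%) and 4551 lower (31.6%). By the narrower rule, a call with a change of at least 4-fold, 1032 genes were higher (7.17%) and 1494 lower (10.4%). The libraries of the lines did not overlap for 70.6% of genes tested, and the median log2 change was -0.06. With so many genes apart, a list of genes is described here by how its members split between higher and lower and by its median, beside these values for all genes.

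**Figure D1:**
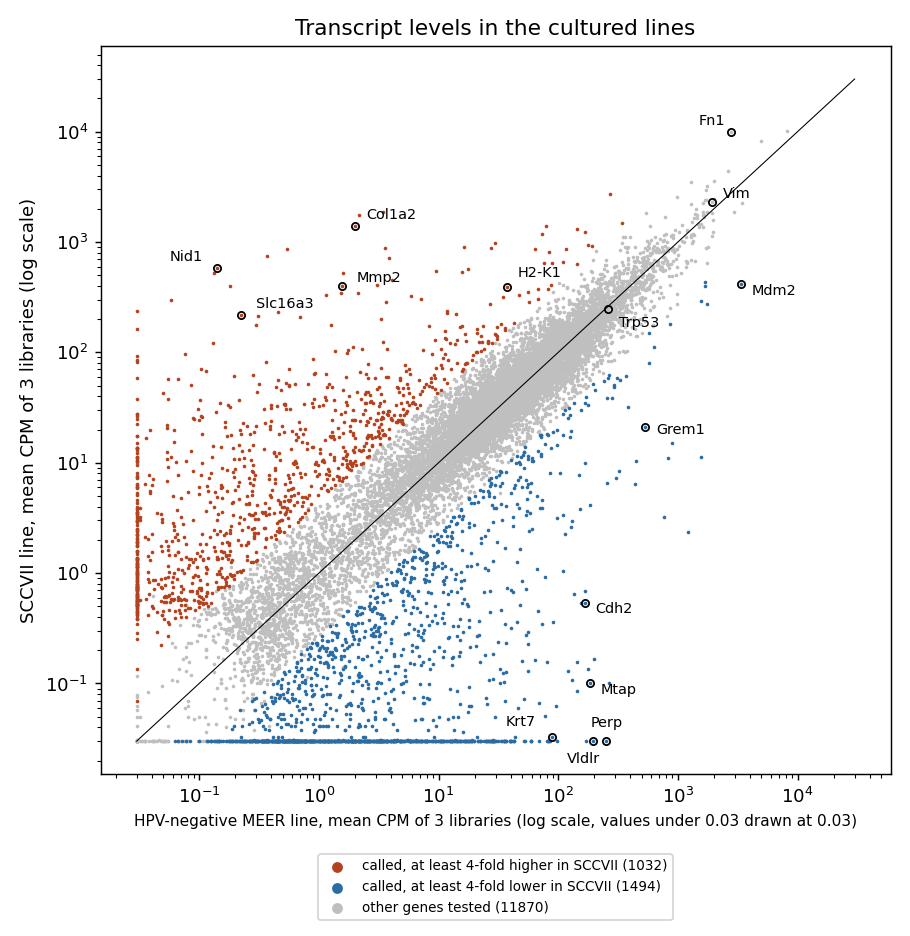
Mean CPM of the 3 SCCVII libraries against mean CPM of the 3 HPV-negative MEER libraries for each of 14396 genes tested, both axes on a log scale. Red points are the 1032 genes called and at least 4-fold higher in SCCVII, blue points the 1494 called and at least 4-fold lower, grey points the others; the line marks equal levels, and values under 0.03 CPM are drawn at 0.03.

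The SCCVII cells lacked several transcripts of squamous epithelium that HPV-negative MEER cells held. Perp, a tetraspan protein of desmosomes and a target of p53 and p63, had 0 CPM in the 3 SCCVII libraries, against 211, 267 and 268 CPM in HPV-negative MEER libraries. Set against 26520 counts in the HPV-negative MEER line, Perp was at least 8100-fold lower in SCCVII cells (adjusted p = 4.5e-09). Dsp, which encodes desmoplakin and links keratin filaments to desmosomes, had 0 CPM in every SCCVII library, against 16, 6.27 and 8.06 CPM, at least 329-fold lower (adjusted p = 9.5e-06). The groups did not overlap for either gene.

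The keratin genes did not move together. Krt19, a keratin of simple and basal epithelium, had 0, 0 and 0.0357 CPM in SCCVII cells, against 61.9, 63.6 and 133 CPM in HPV-negative MEER cells (adjusted p = 6.9e-07). Krt7, a keratin of simple epithelium, had at most 0.0714 CPM in SCCVII cells, against 65.6 to 126 CPM (adjusted p = 1.3e-07). Krt18, another keratin of simple epithelium, had 655, 695 and 726 CPM in SCCVII cells, against 195, 166 and 223 CPM in HPV-negative MEER cells, a log2 change of 1.73 (SE 0.12, adjusted p = 1.3e-06). Krt8, its partner, had 352, 367 and 374 CPM against 160, 134 and 240 CPM, a log2 change of 0.94 (SE 0.22, adjusted p = 0.0042). On the deposited length-scaled measure (TPM), Krt18 averaged 903 TPM and Krt8 365 TPM in SCCVII cells, and 278 and 195 TPM in HPV-negative MEER cells. Of 10 markers of simple epithelium tested, these 2 were higher and 5 lower, with a median log2 of -2.47, or -1.55 with genes at 0 in a line set at their bound.

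Neither line held the full squamous programme. Krt5, the basal keratin, was at 0 CPM in all SCCVII libraries and at most 0.0583 CPM in HPV-negative MEER libraries, and did not pass the filter on low counts. Krt14, its partner, had 0 CPM in SCCVII cells against 2.08 to 3.19 CPM (at least 81.6-fold lower, adjusted p = 0.0021). Trp63, which encodes p63, had 0.142, 0.0869 and 0.25 CPM in SCCVII cells against 0.856, 2.36 and 6.39 CPM (log2 -4.43, SE 0.84, adjusted p = 0.0011). The adhesion gene Epcam was at 0 CPM in SCCVII cells and at most 0.0987 CPM in HPV-negative MEER cells. The keratins and p63 that define basal squamous cells were thus at or near 0 in SCCVII cells and low in HPV-negative MEER cells. Of 11 squamous markers tested out of 14, 1 was higher and 8 were lower in SCCVII cells, with a median log2 of -4.43, or -3.2 with genes at 0 in a line set at their bound. The exception was Itgb4, the laminin receptor subunit of hemidesmosomes, at 130 to 134 CPM against 38.8 to 76.0 CPM (log2 1.11, SE 0.31, adjusted p = 0.01).

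Of 21 junction genes tested, 6 were higher in SCCVII cells, 10 lower and 5 not called, with a median log2 of -0.32. Cdh2, the N-cadherin gene, had 0.484, 0.492 and 0.643 CPM in SCCVII cells, against 190, 177 and 133 CPM in HPV-negative MEER cells (log2 -8.37, SE 0.24, adjusted p = 2.6e-09). F11r, the junctional adhesion molecule A gene, had 0.0855 to 0.203 CPM against 135 to 156 CPM (log2 -9.94, SE 0.20, adjusted p = 2.9e-10). The log2 change was -7.08 for Cdh3 and -7.05 for Cdh11, which encode further cadherins. Cdh1, the E-cadherin gene, was low in both lines, with 0.753 to 1 CPM in SCCVII cells and 1.4 to 2.5 CPM in HPV-negative MEER cells (log2 -1.23, SE 0.41, adjusted p = 0.024). Leaving out SCCVII replicate 1 or 2, or HPV-negative MEER replicate 1 or 3, ended the Cdh1 call (adjusted p 0.052, 0.077, 0.053 and 0.096). Some junction genes rose: Nectin1, an adhesion receptor, had 25.6 to 29.0 CPM against 3.79 to 4.95 CPM (log2 2.55, SE 0.18), Pkp3, a desmosomal plaque gene, changed by 2.99 (SE 0.32), and Gja1, the connexin 43 gene, by 1.08 (SE 0.21).

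Most fibroblast and mesenchyme markers tested were higher in SCCVII cells. Col1a2, a chain of type I collagen, had 1416, 1341 and 1404 CPM in SCCVII cells, against 1.84, 2.56 and 1.62 CPM in HPV-negative MEER cells (log2 9.34, SE 0.19, adjusted p = 3.1e-10). Pdgfra, the receptor for platelet-derived growth factor that marks fibroblasts, had 129, 121 and 122 CPM against 2.76, 3.15 and 4.41 CPM (log2 5.07, SE 0.25, adjusted p = 9.2e-08). Every SCCVII library lay above every HPV-negative MEER library for both. Col3a1 changed by 4.93 (SE 0.55), Col1a1 by 2.75 (SE 0.42) and Acta2, the smooth muscle actin gene, by 2.07 (SE 0.26). Of 9 fibroblast and mesenchyme markers tested out of 12, 7 were higher, and Pdgfrb alone was lower (log2 -1.05, SE 0.29). A separate list of regulators of the transition from epithelium to mesenchyme leaned the other way. Of its 17 genes tested, 3 were higher, 10 lower and 4 not called, with a median log2 of -0.63. The higher members were Fn1, Zeb1 and Prrx1, and the lower ones included Cdh2, Cdh3 and Cdh11. Vim, the vimentin gene, was high in both, at 2190, 2379 and 2383 CPM in SCCVII cells and 1583, 1966 and 2269 CPM in HPV-negative MEER cells, and was not called (log2 0.16, SE 0.18, adjusted p = 0.47).

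**Figure D2:**
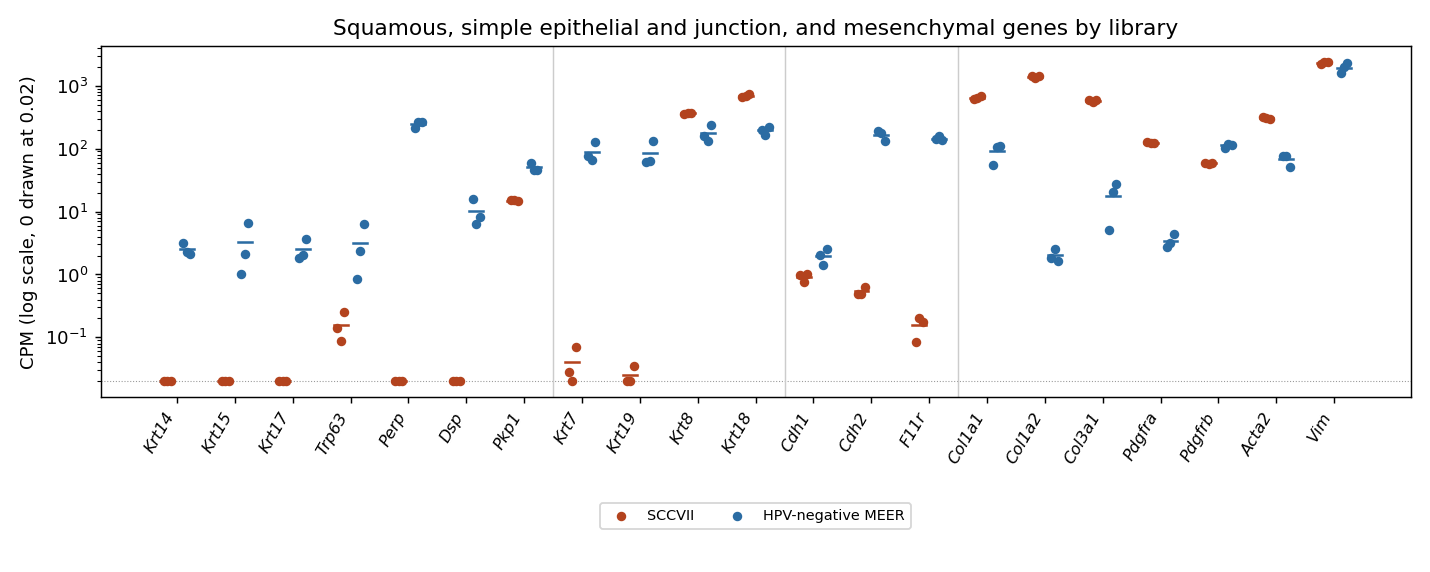
CPM by library on a log scale for squamous genes, keratins of simple epithelium, cadherin and junction genes, and mesenchymal genes; each point is 1 library, bars are means of 3, SCCVII libraries stand left of HPV-negative MEER libraries, and 0 is drawn at 0.02. Perp, Dsp and 3 squamous keratins were at 0 in SCCVII libraries, while Col1a2 lay between 1341 and 1416 CPM there against at most 2.56 CPM.

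Matrix genes switched member by member rather than as a block. Nid1, the basement membrane linker nidogen 1, had 582, 583 and 586 CPM in SCCVII cells, against 0.132, 0.117 and 0.171 CPM in HPV-negative MEER cells (log2 11.87, SE 0.27, adjusted p = 4.9e-10). Its paralog Nid2 ran the other way, with 0.057 to 0.0714 CPM against 16.7 to 20.9 CPM (log2 -8.25, SE 0.33, adjusted p = 2.3e-08). Among laminins, Lama5 had 7.33 to 9.39 CPM against 270 to 363 CPM (log2 -5.38, SE 0.22), while Lamc1 was higher (log2 0.72, SE 0.09). The integrin chain Itga5, which pairs in the fibronectin receptor, rose by 1.89 (SE 0.08) and its ligand gene Fn1 by 1.73 (SE 0.23), with 9657 to 10158 CPM against 2700 to 2960 CPM. Itga3 and Itga6, chains of laminin receptors, fell by 2.71 and 2.64. Of 24 basement membrane and adhesion genes, 10 were higher and 10 lower, and of 19 collagens 9 were higher and 6 lower. Col5a2 changed by 6.72 (SE 0.25), while Col11a1 had 0 CPM in SCCVII cells against 41.0 to 76.9 CPM, at least 1930-fold lower.

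Proteases divided in the same way. The gelatinase genes rose: Mmp2 had 402, 404 and 395 CPM in SCCVII cells, against 1.91, 1.63 and 1.13 CPM (log2 7.93, SE 0.24, adjusted p = 3.5e-09), and Mmp9 had 10.7 to 11.6 CPM against 0.0490 to 0.0658 CPM (log2 7.45, SE 0.38). Serpine2, an inhibitor of serine proteases, was lower: it had at most 0.0357 CPM in SCCVII cells against 10.8 to 15.6 CPM. Of 23 protease and inhibitor genes, 7 were higher and 11 lower.

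Most transcripts that report on signalling from RAS to ERK kinases were lower in SCCVII cells. Spry2, a feedback inhibitor of receptor signalling, had 7.95, 7.85 and 8.28 CPM in SCCVII cells, against 83.6, 83.5 and 90.2 CPM in HPV-negative MEER cells (log2 -3.51, SE 0.11, adjusted p = 3.5e-09). The phosphatase gene Dusp6 had 46.9 to 49.6 CPM against 205 to 360 CPM (log2 -2.69, SE 0.21), and Dusp5 changed by -3.01 (SE 0.20). Of 20 genes in the list, 15 were lower and 4 higher, with a median log2 of -1.43. The 4 higher genes were Il1rl1, the receptor of interleukin 33, with 530 to 546 CPM against 9.38 to 24.5 CPM (log2 5.00, SE 0.34), Spry4 (1.61), Etv1 (1.55) and Ier3 (0.48). The kinase pathway genes themselves moved little: Hras had 33.8 to 34.6 CPM against 38.8 to 46.2 CPM (log2 -0.45, SE 0.10), and Nras and Braf were not called.

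Ligands of the epidermal growth factor receptor fell while the receptor rose. Egfr had 50.9, 50 and 51.4 CPM in SCCVII cells against 15.8, 18 and 12.9 CPM (log2 1.61, SE 0.49, adjusted p = 0.016). Areg, the amphiregulin gene, had 3.25, 3.16 and 3.61 CPM against 98.1, 149 and 85.2 CPM (log2 -5.15, SE 0.28, adjusted p = 1.9e-07). Tgfa had 1 read over the 3 SCCVII libraries against 14.1 to 18.6 CPM (adjusted p = 2.1e-08), and Ereg, Hbegf, Btc and Egf were lower as well. Epgn, the epigen gene, was the ligand that rose by more than 4-fold (log2 2.91, SE 0.46). Other factors were made in SCCVII cells instead. Fgf7, the keratinocyte growth factor gene, had 49.2, 51.2 and 49.4 CPM against 0.625, 0.525 and 0.539 CPM (log2 6.37, SE 0.22, adjusted p = 9e-09). Hgf changed by 4.78 (SE 0.51), Fgf21 by 6.06 (SE 0.60) and Vegfa by 1.19 (SE 0.10). Altogether 10 of 24 growth factor genes were higher and 12 lower.

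Morphogen ligands also exchanged. Bmp4, a bone morphogenetic protein gene, had 1 read over the 3 SCCVII libraries against 35.7 to 43.8 CPM (adjusted p = 1.7e-07), and Bmp2 had 3.62 to 4.61 CPM against 0.0874 to 0.362 CPM (log2 3.97, SE 0.47). Grem1, a secreted antagonist of these proteins, had 20.3 to 22.1 CPM against 443 to 596 CPM (log2 -4.76, SE 0.36). Id2 rose by 3.27 (SE 0.49), while Id4, a family member that blocks transcription factor binding to DNA, had 0 CPM in SCCVII cells against 114, 176 and 222 CPM, at least 5550-fold lower (adjusted p = 3.9e-07). Among Wnt genes, Wnt10b had 19.2 to 21.0 CPM against at most 0.098 CPM (log2 8.07, SE 0.44), and Wnt7b and Wnt10a fell by 7.35 and 4.06. The Notch genes had Notch2 higher (log2 1.52, SE 0.15) and Notch1 lower (-1.08, SE 0.27). Notch3 had 2 reads over the 3 SCCVII libraries against 13.9 to 25.6 CPM, and the Notch target Hes1 had 0.0357 to 0.145 CPM against 11.2 to 13.4 CPM (log2 -7.11, SE 0.27, adjusted p = 1.8e-08). Of 22 Wnt and Notch genes, 13 were lower and 7 higher.

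**Figure D3:**
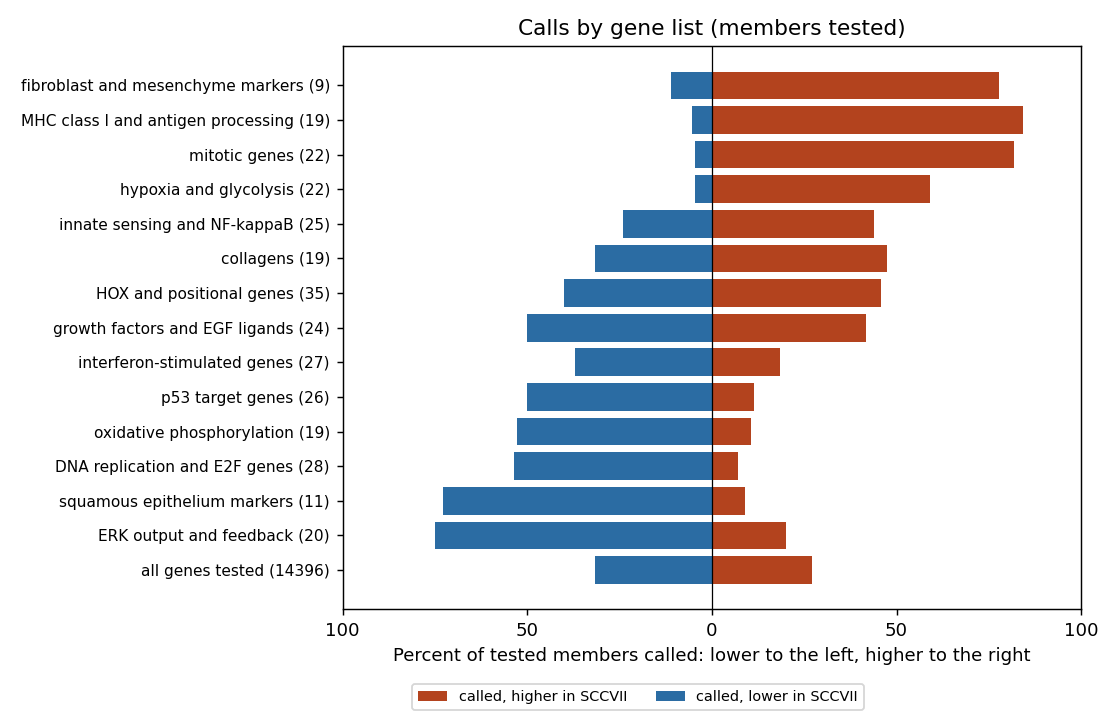
Percent of tested members of 14 gene lists called higher in SCCVII cells (red, to the right) or lower (blue, to the left), with the number of members tested in brackets and all genes tested in the bottom row. ERK outputs and squamous markers lie mostly to the left, MHC class I and mitotic genes mostly to the right.

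The genes for the cell cycle inhibitors p16, p19Arf and p15 were not detected beyond 2 reads in SCCVII cells. Cdkn2a, which encodes p16 and p19Arf, had 0, 0 and 0.0357 CPM in SCCVII cells, against 45.0, 77.1 and 85.6 CPM in HPV-negative MEER cells (adjusted p = 6.5e-08). Cdkn2b, the p15 gene next to it, had 0.0285, 0 and 0.0357 CPM against 10.5, 17.3 and 21.9 CPM (adjusted p = 6e-07). Both were also present in HPV-positive MEER cells, at 132 to 213 and 51.8 to 99.4 CPM. They belong to a run of 8 neighbouring tested genes, each at least 4-fold lower in SCCVII cells, at chr4:88718292-91400785 of GRCm38.

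The run begins with Klhl9, a substrate adaptor of a ubiquitin ligase that acts in mitosis, and ends with Elavl2, which encodes a neuronal RNA-binding protein. Klhl9 had 0.0285, 0.0869 and 0.0714 CPM in SCCVII cells against 95.7, 97.5 and 97.1 CPM (log2 -10.63, SE 0.19, adjusted p = 1.8e-10). Mtap, the enzyme that salvages methylthioadenosine and lies beside Cdkn2a, had 0.114, 0.116 and 0.0714 CPM against 188, 208 and 159 CPM (log2 -10.86, SE 0.20, adjusted p = 1.8e-10). The noncoding genes Wincr1 and Gm12602 had 0 CPM in SCCVII cells against 13.8 to 20.1 and 4.92 to 6.62 CPM. Over all 46 genes of the count table inside this interval, SCCVII cells had 23 counts and HPV-negative MEER cells 42397. Macrophages of the SCCVII model, from the same strain, had 7266 counts over the interval, with Mtap at 41.8 CPM and Klhl9 at 35.9 CPM, so Mtap and Klhl9 were countable in C3H RNA. These macrophages had 193 counts of Cdkn2a and 139 of Cdkn2b. For Wincr1, Gm12602, Zfp352 and Elavl2 they had 0 counts, so they do not show whether those genes are countable in this strain. The nearest tested genes on both sides were higher in SCCVII cells: Mrpl48-ps, a pseudogene, had 6.02 CPM in SCCVII cells and 0.154 CPM in HPV-negative MEER cells (log2 5.17, adjusted p = 1.1e-05), and Gm12666 had 2.53 and 0 CPM (adjusted p = 6e-05). They averaged 9.77 and 3.12 CPM in macrophages of the SCCVII model. The next ones out were lower, Hacd4 with 1.65 CPM in SCCVII cells and 6.07 CPM in HPV-negative MEER cells, and Tusc1 with 0.211 and 1.73 CPM. Whether the DNA of this interval is present in SCCVII cells was not tested.

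**Figure D4:**
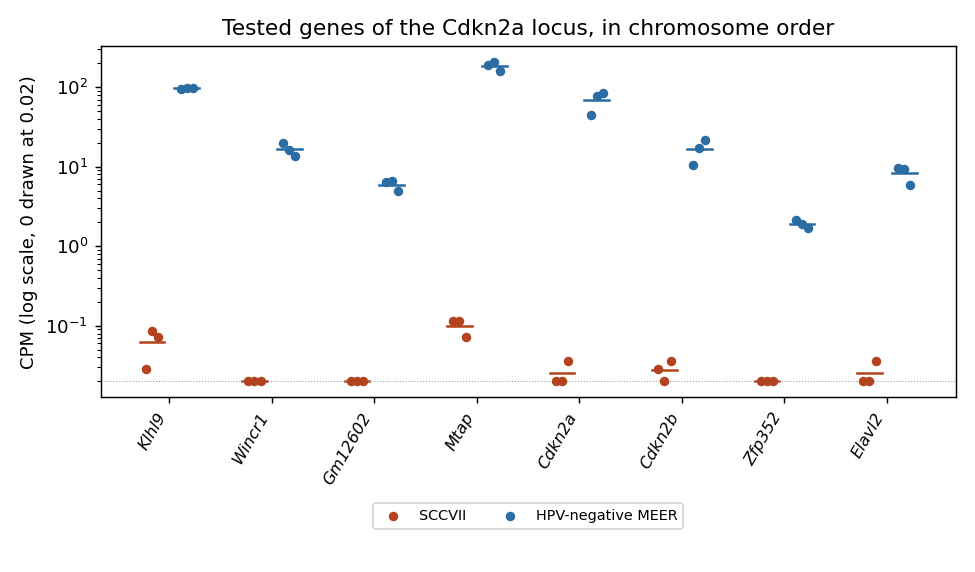
CPM by library on a log scale for the 8 tested genes of the Cdkn2a run in chromosome order; each point is 1 library, bars are means of 3, SCCVII libraries stand left of HPV-negative MEER libraries, and 0 is drawn at 0.02. SCCVII libraries had at most 0.116 CPM of any of the 8 genes, while HPV-negative MEER libraries had up to 208 CPM.

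Trp53, the p53 gene, was not called, at 249, 248 and 246 CPM in SCCVII cells and 238, 290 and 258 CPM in HPV-negative MEER cells (log2 -0.18, SE 0.09, adjusted p = 0.12); without HPV-negative MEER replicate 1 it was called lower (log2 -0.24, adjusted p = 0.044). Mdm2, which marks p53 for degradation and is itself a p53 target, had 416, 419 and 411 CPM against 3305, 4055 and 2761 CPM (log2 -3.12, SE 0.16, adjusted p = 1.5e-07). Pmaip1, the gene of the p53-induced death protein Noxa, had 0.0714 to 0.171 CPM in SCCVII cells against 42.8 to 72.2 CPM (log2 -8.78, SE 0.49, adjusted p = 2.5e-07). HPV-positive MEER cells had 207, 160 and 199 CPM of Mdm2, below both of these lines, and 35.6 to 85.4 CPM of Pmaip1. Ccng1, Phlda3, Plk3 and Ei24 fell by 1.16, 1.53, 1.29 and 1.06. Cdkn1a, the p21 gene, was not called, at 337 to 346 CPM in SCCVII cells and 297 to 466 CPM in HPV-negative MEER cells (log2 -0.18, SE 0.20). Rrm2b, a subunit of ribonucleotide reductase, was among 3 members that rose (log2 1.75, SE 0.10). Of 26 p53 target genes, 13 were lower, 3 higher and 10 not called, with a median log2 of -0.52.

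Of 18 tumour suppressor and RB pathway genes, 4 were higher in SCCVII cells, 6 lower and 8 not called. Rb1, which restrains entry into S phase, was higher (log2 0.52, SE 0.11), as was the CDK inhibitor gene Cdkn2c (log2 1.02, SE 0.17). Ccnd1, the cyclin D1 gene, had 290, 290 and 289 CPM in SCCVII cells against 1426, 1648 and 1624 CPM (log2 -2.53, SE 0.15, adjusted p = 4e-07), and Cdk4 fell by 0.67 (SE 0.10). E2f1 fell by 1.53 (SE 0.11), while E2f2 was higher (log2 1.02, SE 0.31, adjusted p = 0.016), a call lost without SCCVII replicate 3 (adjusted p 0.051) and without HPV-negative MEER replicate 2 or 3 (0.057 and 0.055). Myc was higher too (log2 0.63, SE 0.17). Of 28 replication and E2F genes tested, 15 were lower and 2 higher, with a median log2 of -0.53. Tyms, the thymidylate synthase gene, had 34.1 to 36.1 CPM against 90.4 to 160 CPM (log2 -1.81, SE 0.20), and the helicase gene Mcm4 had 52.4 to 52.9 CPM against 111 to 160 CPM (log2 -1.38, SE 0.14). Mcm7, another helicase subunit, rose, with 256 to 260 CPM against 98.2 to 117 CPM (log2 1.13, SE 0.10, adjusted p = 4.3e-06).

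Most mitotic genes were higher in SCCVII cells. Bub1b, a spindle checkpoint kinase gene, had 145, 142 and 140 CPM in SCCVII cells, against 39.6, 25.9 and 27.0 CPM (log2 2.11, SE 0.16, adjusted p = 1.9e-06). Cdc20 changed by 1.80 (SE 0.19) and Cenpf by 1.77 (SE 0.27). Of 22 mitotic genes, 18 were higher and 1 lower, with a median log2 of 0.78. These genes also differed between HPV-negative MEER aliquots: Mki67, the proliferation antigen gene, had 169, 171 and 188 CPM in SCCVII cells against 150, 58.7 and 60.3 CPM (log2 0.88, SE 0.32, adjusted p = 0.037). The Mki67 call was lost without any SCCVII library (adjusted p 0.064, 0.066 and 0.088 without replicates 1, 2 and 3) and without HPV-negative MEER replicate 2 or 3 (0.13 and 0.11). The count of higher mitotic genes dropped to 11 without HPV-negative MEER replicate 2 and likewise without replicate 3. Cenpa, a centromeric histone gene and the 1 lower member, lost its call without each of the SCCVII libraries (adjusted p 0.1, 0.085 and 0.093), without HPV-negative MEER replicate 1 or 2 (0.16 and 0.052) and with a minimum count of 50 (0.051).

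Among DNA repair genes, 14 of 22 were not called, 2 were higher and 6 lower; without HPV-negative MEER replicate 1, 7 were higher. Mgmt, the enzyme that removes alkyl groups from guanine, stood apart with 0 CPM in SCCVII cells against 11.1, 13.4 and 15.1 CPM, at least 429-fold lower (adjusted p = 1.6e-07). The mismatch repair gene Msh6 fell by 1.06 (SE 0.09) and the checkpoint kinase gene Atr rose by 0.82 (SE 0.15).

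Glycolytic and hypoxia-responsive genes were higher in SCCVII cells. Slc16a3, the transporter that exports lactate, had 210, 215 and 227 CPM in SCCVII cells, against 0.362, 0.117 and 0.196 CPM in HPV-negative MEER cells (log2 9.84, SE 0.28, adjusted p = 2.6e-09). The glucose transporter gene Slc2a3 had 13.5 to 14.9 CPM against 0.0291 to 0.196 CPM (log2 6.60, SE 0.36). Car9, a carbonic anhydrase induced by hypoxia, had 33.2 to 37.1 CPM against 1.05 to 4.75 CPM (log2 3.71, SE 0.45), and Ndrg1, a stress-responsive gene, had 1217 to 1239 CPM against 148 to 187 CPM (log2 2.78, SE 0.12). Of 22 genes, 13 were higher, 1 lower and 8 not called. The 1 lower gene, Eno1, has a near-identical copy, Eno1b, and its direction is uncertain, as described below. Genes of oxidative phosphorylation leaned lower, with 10 of 19 lower and 2 higher, by small amounts. Atp5b fell by 0.87 (SE 0.11) and Ndufa4 by 0.80 (SE 0.12), while Cox6c rose by 0.83 (SE 0.11). Nnt, the mitochondrial transhydrogenase gene, was not called (53.9 to 55.7 against 45.5 to 59.5 CPM).

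Detoxifying enzymes were exchanged one for another. Nqo1, a quinone reductase gene induced by NRF2, had 90.1, 88.3 and 85.4 CPM in SCCVII cells against 1.32, 0.67 and 0.686 CPM (log2 6.55, SE 0.39, adjusted p = 3.6e-07). Nfe2l2, the NRF2 gene, was lower (log2 -1.0, SE 0.09), and of 21 NRF2 targets 7 were higher and 8 lower. Among drug exporters, Abcb1a and Abcb1b rose by 3.53 (SE 0.39) and 2.22 (SE 0.16), and Abcg2 fell, with 4.49 to 4.90 CPM against 50.2 to 64.2 CPM (log2 -3.65, SE 0.39). Cyp1b1, a cytochrome that oxidises hydrocarbons and steroids, had 3 reads over the SCCVII libraries against 14.6 to 46.9 CPM. Vldlr, a lipoprotein receptor gene listed with the ATF4 targets, had 0 CPM in SCCVII cells against 215, 203 and 164 CPM, at least 6310-fold lower (adjusted p = 6.1e-09).

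Transcripts for nearly every step of antigen presentation by MHC class I were higher in SCCVII cells. H2-K1, a classical class I heavy chain, had 381, 393 and 389 CPM in SCCVII cells, against 47.2, 27.7 and 37.1 CPM in HPV-negative MEER cells (log2 3.28, SE 0.18, adjusted p = 2.3e-07). Psmb8, a subunit of the immunoproteasome, had 50.1, 53.2 and 53.5 CPM against 0.461, 0.233 and 0.906 CPM (log2 6.47, SE 0.34, adjusted p = 1.6e-07). The peptide transporter gene Tap2 changed by 2.33 (SE 0.30), and Nlrc5, the transactivator of class I genes, by 2.85 (SE 0.25). In macrophages Psmb8 averaged 197 CPM in the SCCVII model and 219 CPM in the HPV-negative MEER model, so it was countable in both strains. B2m, the light chain, had 834 to 908 CPM against 353 to 397 CPM (log2 1.14, SE 0.23), and H2-D1 had 303 to 328 CPM against 193 to 223 CPM (log2 0.51, SE 0.14). Of 19 genes, 16 were higher, 1 lower (Pdia3, a chaperone of the loading complex, log2 -0.44) and 2 not called. The strains carry different class I haplotypes, so reads of these genes may be assigned unequally; in macrophages H2-K1 averaged 1069 CPM in the SCCVII model and 1485 CPM in the HPV-negative MEER model, the opposite order. H2-Q2 was present in SCCVII cells (27.2 to 28.3 CPM) and SCCVII-model macrophages (81.1 CPM) and at or near 0 in both sample types of the other strain, so for this gene the difference follows the strain.

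Other interferon targets did not rise as a set, and single members went either way. Ifit1, an antiviral protein gene, had 0.969 to 1.25 CPM in SCCVII cells against 9.12 to 18.9 CPM (log2 -3.64, SE 0.37, adjusted p = 1.6e-05), and Oas2 fell by 6.06 (SE 0.73). Irf1, a transcription factor that acts on class I genes, had 70.8 to 75.6 CPM against 26.4 to 29.0 CPM (log2 1.28, SE 0.10, adjusted p = 1.9e-06), and Gbp2 rose by 1.69 (SE 0.25). Of 27 genes, 5 were higher, 10 lower and 12 not called, beside 27.2% higher and 31.6% lower over all genes tested. The 10 dropped to 6, 5 and 5 without SCCVII replicates 1, 2 and 3 and to 5 without HPV-negative MEER replicate 3. Innate sensors leaned higher, with 11 of 25 higher and 6 lower. Casp1, the inflammasome protease gene, had 38.3 to 44.6 CPM against 4.81 to 5.24 CPM (log2 2.93, SE 0.16), Aim2, a sensor of cytosolic DNA, changed by 2.81 (SE 0.28), Tlr2 by 1.98 (SE 0.13) and Birc3 by 3.47 (SE 0.20). Tlr4, the lipopolysaccharide receptor gene, had 79.4 to 81.1 CPM against 68.9 to 75.6 CPM and was not called (adjusted p = 0.64), although the libraries did not overlap.

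Secreted factors that act on myeloid cells were mixed, with 6 of 22 higher, 7 lower and 9 not called. Csf1, the macrophage growth factor gene, had 819, 789 and 817 CPM in SCCVII cells against 599, 550 and 377 CPM in HPV-negative MEER cells (log2 0.57, SE 0.22, adjusted p = 0.048). That call was lost without any of the SCCVII libraries (adjusted p 0.099, 0.084 and 0.1 for replicates 1, 2 and 3) and without HPV-negative MEER replicate 2 or 3 (0.074 and 0.13). Ccl2 and Ccl7, chemokines for monocytes, had 6.46 to 8.98 CPM against 0.495 to 0.987 CPM (log2 3.44, SE 0.45) and 5.85 to 7.12 CPM against 0.245 to 0.291 CPM (log2 4.51, SE 0.40). Cxcl12, a chemokine for CXCR4, had 167 to 171 CPM against 325 to 561 CPM (log2 -1.39, SE 0.18), and Spp1, the osteopontin gene, had 416 to 448 CPM against 1244 to 2065 CPM (log2 -2.05, SE 0.19). Csf2 was at 0 in SCCVII cells and at most 0.098 CPM in HPV-negative MEER cells, and was not tested.

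Ligands of T cell receptors for costimulation and inhibition also exchanged. Cd274, which encodes PD-L1, had 9.52, 11.2 and 9.78 CPM in SCCVII cells against 6.12, 4.84 and 5.32 CPM (log2 0.81, SE 0.18, adjusted p = 0.0026). Of 16 genes of this list tested, 6 were higher, 6 lower and 4 not called. Cd80 had 9.77 to 10.9 CPM against 42.0 to 86.5 CPM (log2 -2.66, SE 0.33), and the nectin-family ligands Pvr and Nectin2 fell by 1.57 and 2.07. Cd86 was higher, with 1.0 to 1.2 CPM in SCCVII cells against 1 read over the HPV-negative MEER libraries (adjusted p = 3.5e-05). Entpd1, the CD39 ectonucleotidase gene, had 24.1 to 25.6 CPM in SCCVII cells against 3 reads over the HPV-negative MEER libraries (adjusted p = 8.4e-08). Nt5e, the CD73 gene that acts after CD39, fell by 1.18 (SE 0.24), and Cd47, a signal against phagocytosis, rose by 0.92 (SE 0.13).

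Transcripts of HOX genes differed by cluster. HOX genes record the place along the body axis from which cells came. All 9 genes of the B cluster that were tested were lower in SCCVII cells, all 6 of the C cluster and all 4 of the D cluster were higher, and of 10 in the A cluster 5 were higher and 5 not called. Hoxb9 had 0.798, 0.608 and 0.536 CPM in SCCVII cells against 127, 147 and 134 CPM (log2 -7.79, SE 0.41, adjusted p = 1.6e-07). Hoxc8 had 18.8, 21.7 and 20.6 CPM against 0.658, 0.845 and 0.588 CPM (log2 4.77, SE 0.21, adjusted p = 5.4e-08). HPV-positive MEER cells had 1.62 to 5.76 CPM of Hoxb9, far below the HPV-negative line, and 0.172 to 0.252 CPM of Hoxc8. Whether the lines differ in positional identity was not tested. Hoxc10 and Hoxd9 had 10.8 to 12.0 and 5.07 to 6.95 CPM in SCCVII cells and no read in HPV-negative MEER cells, at least 396-fold and 219-fold higher. Of 35 HOX and positional genes tested, 16 were higher, 14 lower and 5 not called. Nkx2-3, a homeobox gene of pharyngeal endoderm, had 0 CPM in SCCVII cells against 27.0, 38.1 and 54.2 CPM, at least 1290-fold lower. Pitx1, a homeobox gene of the first pharyngeal arch and hindlimb, had 1 read against 49.4 to 111 CPM. Foxa2, an endoderm factor, had 0 CPM against 6.45 to 11.5 CPM, at least 291-fold lower. Dlx3, a homeobox gene of ectoderm, had 2.89 to 3.97 CPM in SCCVII cells against 2 reads in HPV-negative MEER cells (adjusted p = 5.7e-06). Of 18 epithelial transcription factors, 12 were lower and 4 higher; Gata3 rose (log2 2.05, SE 0.33), Tfap2a rose (log2 0.82, SE 0.12) and Sox2 fell (log2 -2.34, SE 0.18).

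**Figure D5:**
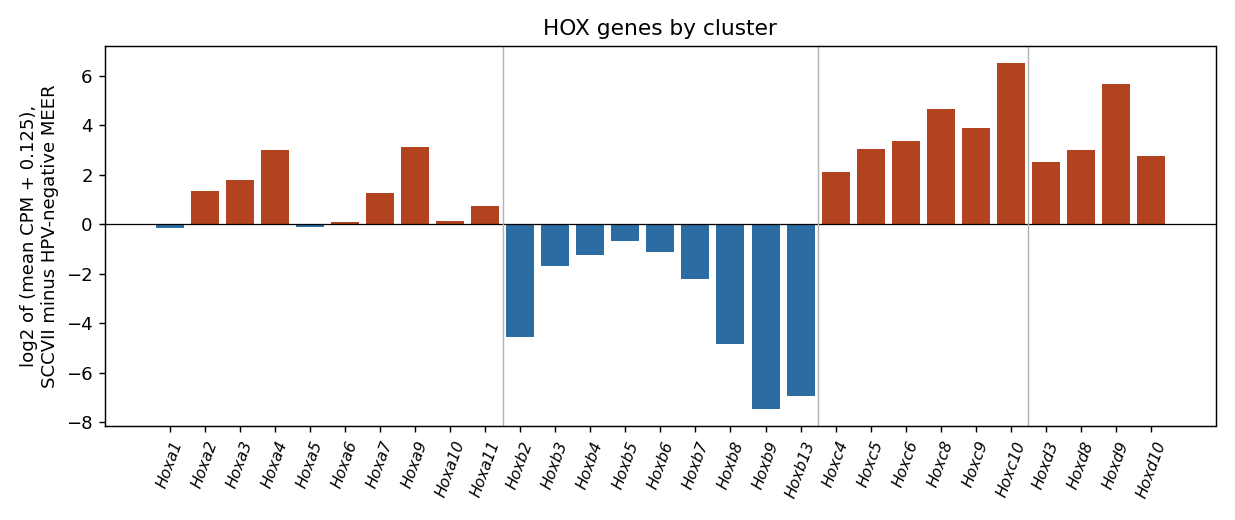
Difference between lines in log2 of mean CPM plus a small constant for every tested HOX gene, grouped by cluster A to D and ordered by number; red bars are higher in SCCVII cells and blue bars lower. All 9 B genes point down and all 10 genes of the C and D clusters point up; for Hoxc10, Hoxd9 and Hoxb13, which had no read in 1 line, the bar length depends on that constant.

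A set of genes was on in 1 line and off in the other, taken as at least 10 CPM in all 3 libraries of 1 line and below 0.1 CPM in all 3 of the other. There were 38 such genes in SCCVII cells and 111 in HPV-negative MEER cells, 29 and 108 of them protein coding. Among the 38, macrophages of the HPV-negative MEER model had 7 at 5 CPM or more in every library, and among the 111, macrophages of the SCCVII model had 8, so these were countable in RNA of the strain whose line lacked them. The macrophage samples also held low levels of line-specific genes: Perp averaged 0.0228 CPM in macrophages of the SCCVII model and 4.5 CPM in those of the HPV-negative MEER model. Leaving out the pseudogenes, the SCCVII genes with the highest levels were Crabp1, a carrier of retinoic acid, at 286, 306 and 303 CPM against 0.049 to 0.0658 CPM, and Pet2 on the X chromosome, at 156 to 167 CPM against 1 read. Pianp, a ligand of the paired receptor PILRalpha, had 83.4 to 88.3 CPM in SCCVII cells and no read in HPV-negative MEER cells, at least 3010-fold higher. Macrophages differed in the same direction for Pianp, at 63 CPM in the SCCVII model and 1.92 CPM in the HPV-negative MEER model. Gfra4, a co-receptor for persephin, was at least 460-fold higher. The HPV-negative MEER genes included, besides Perp, Vldlr, Id4 and Klhl9, the X-linked gene Armcx2 (1 read in SCCVII cells against 80.6 to 109 CPM) and Klra4, a Ly49 receptor gene usually read in natural killer cells (2 reads against 53.8 to 107 CPM). Since the Klra genes have near-identical copies, the assignment of Klra4 is uncertain.

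Of the 111 genes on in HPV-negative MEER cells, HPV-positive MEER cells had 40 at 10 CPM or more in every library and 5 below 0.1 CPM. Of the 38 on in SCCVII cells, HPV-positive MEER cells had none at 10 CPM in every library and 23 below 0.1 CPM. These counts share the HPV-negative and SCCVII libraries with the choice of the genes and are a description. Perp had 147 to 172 CPM in HPV-positive MEER cells and Nkx2-3 25.2 to 33.9 CPM. Vldlr had 14.7 to 16.8 CPM and Id4 33.5 to 55.8 CPM there, below the HPV-negative line, and Armcx2 had 0.18 to 0.545 CPM. Of the genes on in SCCVII cells, 15 met neither limit in HPV-positive MEER cells. Among them, Crabp1 had 9.18 to 22.4 CPM and Msx3 5.03 to 11.9 CPM in those cells.

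The promoter windows of 2 genes on in each line and off in the other are shown to set the sequence beside the switch. They are those with the highest level among the named on and off genes that have a RefSeq window and whose start in RefSeq lies within 100 bases of the gene start in GENCODE. Each is 250 bases before to 50 bases after the start of the transcript in RefSeq (GRCm38.p6), 5′ to 3′ on the coding strand, with every CpG dinucleotide in capitals, the site of DNA methylation. Crabp1 lies at chr9:54764498-54764797 on the plus strand and Ankrd33b at chr15:31367710-31368009 on the minus strand, and both were on in SCCVII cells, Ankrd33b at 89.3 to 93.8 CPM against 2 reads. Vldlr lies at chr19:27216234-27216533 on the plus strand and Armcx2 at chrX:134809172-134809471 on the minus strand, and both were on in HPV-negative MEER cells.
Crabp1: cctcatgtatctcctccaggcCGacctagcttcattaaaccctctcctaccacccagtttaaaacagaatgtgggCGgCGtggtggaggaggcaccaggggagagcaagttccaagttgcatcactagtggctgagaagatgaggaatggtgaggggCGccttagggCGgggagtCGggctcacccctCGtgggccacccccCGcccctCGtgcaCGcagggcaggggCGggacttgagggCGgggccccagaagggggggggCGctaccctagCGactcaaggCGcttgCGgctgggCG
Ankrd33b: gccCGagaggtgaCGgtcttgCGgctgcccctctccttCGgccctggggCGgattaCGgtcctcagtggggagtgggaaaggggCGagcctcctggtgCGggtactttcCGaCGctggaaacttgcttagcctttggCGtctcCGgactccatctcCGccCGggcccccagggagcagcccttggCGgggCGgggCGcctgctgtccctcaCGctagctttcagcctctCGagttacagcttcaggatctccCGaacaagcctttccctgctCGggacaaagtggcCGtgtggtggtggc
Vldlr: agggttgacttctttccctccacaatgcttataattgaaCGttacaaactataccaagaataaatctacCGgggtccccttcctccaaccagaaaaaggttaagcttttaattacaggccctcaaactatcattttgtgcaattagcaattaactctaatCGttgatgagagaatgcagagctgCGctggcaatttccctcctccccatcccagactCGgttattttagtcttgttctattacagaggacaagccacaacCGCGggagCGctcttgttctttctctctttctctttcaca
Armcx2: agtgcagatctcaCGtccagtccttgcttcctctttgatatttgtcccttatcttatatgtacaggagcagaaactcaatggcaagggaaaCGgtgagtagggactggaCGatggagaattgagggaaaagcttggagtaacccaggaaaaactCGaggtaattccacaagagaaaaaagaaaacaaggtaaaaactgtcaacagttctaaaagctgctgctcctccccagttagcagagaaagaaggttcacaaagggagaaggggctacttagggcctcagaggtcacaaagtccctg

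The Ankrd33b window held 22 CpG, the Crabp1 window 17, the Vldlr window 8 and the Armcx2 window 4. Counting as CpG-rich a window with a ratio of observed to expected CpG above 0.6 and a GC share above 50%, 7 of 19 SCCVII genes with a window (36.8%) and 46 of 81 HPV-negative MEER genes (56.8%) were CpG-rich, against 67.8% of 10454 genes tested between the lines and 46.0% of all 17681 windows. Methylation was not measured in these samples.

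Neighbouring genes changed together at 14 places, in runs of at least 5 tested genes that were each called and at least 4-fold different in 1 direction. Of these, 2 were higher in SCCVII cells and 12 lower. The higher runs were the Hoxc genes (chr15:102966796-103036852) and the H2-Q class I genes (chr17:35342242-35474563). The lower ones included the Cdkn2a run, the keratin run from Krt13 to Krt17 (chr11:100117327-100261029), Hoxb genes (chr11:96251105-96306910) and the Armcx genes of the X chromosome (chrX:134686519-134809221). Armcx1 and Armcx4 had 0 CPM in SCCVII cells against 29.3 to 29.6 and 22.6 to 32.2 CPM, at least 960-fold and 846-fold lower. Armcx3, in the same run, was still read in SCCVII cells, at 2.22 to 2.53 CPM against 52.0 to 60.3 CPM (log2 -4.68, SE 0.44). The genes of the Zscan4 cluster, known from early mouse embryos, had no read in SCCVII cells, while Zscan4f had 6.91 to 7.49 CPM and Zscan4c 2.69 to 3.16 CPM in HPV-negative MEER cells. Tcstv1 and Pramef25, members of other multicopy families, were likewise at 0 in SCCVII cells and at 0.588 to 1.68 CPM in HPV-negative MEER cells. The copies of such families are near identical, so reads may be split among them and each gene's value is uncertain. Gm21312 and Gm20765, neighbours in the same lower run, had the same CPM in each library of both lines. The number of runs, which counts such families, is therefore uncertain as well.

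Whole chromosomes leaned as well. On chromosome 15, 369 of 548 genes tested were higher in SCCVII cells and 66 lower, with a median log2 of 0.71. On chromosome 19, 275 of 480 were lower and 64 higher, with a median of -0.55, and on the X chromosome the median was -0.39. Medians of the other chromosomes lay between -0.28 and 0.21. For genes averaging at least 1 CPM, the median difference in mean log2 level on chromosome 15 was 0.83 between SCCVII and HPV-negative MEER cells, 0.96 between SCCVII and HPV-positive MEER cells, which share the SCCVII libraries, and 0.07 between macrophages of the SCCVII and HPV-negative MEER models. On chromosome 19 these values were -0.42, -0.21 and 0. DNA copy number was not measured here.

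Some differences between these lines lie in near-identical gene copies and follow the strain. Rpl3, a ribosomal protein gene that every cell uses, had 3.28, 1.94 and 1.89 CPM in SCCVII cells against 1251, 1310 and 1117 CPM in HPV-negative MEER cells, and macrophages showed the same, at 1.38 CPM in the SCCVII model and 1104 CPM in the HPV-negative MEER model. Eno1b had 733 to 769 CPM in SCCVII cells against 0 to 0.757 CPM, and 788 and 0.114 CPM in macrophages of the 2 models. Eno1 had 659 to 684 CPM against 1228 to 1598 CPM, so both copies held reads in the SCCVII line. Rps3a1 and Rps3a3 likewise traded places. Macrophages of the strains were compared by a looser rule. It asked for at least 5 CPM in every library of 1 model and below 0.5 CPM in every library of the other. Of the 38 genes on in SCCVII cells, 7 met it in the same direction, of which 6 are pseudogenes and the other is H2-Q2. Of the 111 on in HPV-negative MEER cells, 0 did.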

How the data were processed

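RNA sequencing libraries came from 3 aliquots each of cultured SCCVII and HPV-negative MEER cells. The authors deposited, per the file headers, expected counts and TPM per gene in the column format of RSEM; alignment with STAR 2.5.3a and quality control with FastQC and MultiQC come, like RSEM version 1.3.0 and the build mm10/GRCm38, from the submitters' processing notes. Libraries were stranded, per the labels' protocols. The strand setting of counting, the annotation release and read filters are not known from the sources used, so genes with near-identical copies, overlapping genes and antisense genes are uncertain. Of all deposited expected counts, 13.1% were not whole. Of 36793 gene identifiers, 35243 (95.8%) matched a GENCODE M21 symbol, whose GRCm38 coordinates are given 1-based.

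Expected counts were rounded, then fitted in R 4.3.3 by edgeR 4.0.16 (glmQLFit and glmQLFTest, quasi-likelihood). Scaling used TMM, low genes were removed by filterByExpr at 10 reads and 15 in total, and calls used Benjamini-Hochberg adjustment at 0.05. All 9 tumour-cell libraries, with the 3 of HPV-positive MEER, shared 1 fit and 1 estimate of the spread. TPM as deposited served only to set levels of different genes side by side. The script was tested on simulated data. Bounds use 3 counts over a line and cover counting error only. Members and gene lists were chosen with earlier results of these data known.

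Named genes were the 10 largest rises and falls among called genes with libraries apart and at least 10 CPM in the higher line (predicted genes, pseudogenes and ribosomal protein genes left out), up to 3 rises and 3 falls a list, fixed genes, run members and the 6 most abundant switch genes each way. Further list members, Rpl3, Rps3a1, Rps3a3, Eno1b and the genes flanking the Cdkn2a run were chosen after their values were seen. Alternatives were RLE or no scaling, no filter or a minimum count of 50, DESeq2 1.42.0, only the 6 libraries, a replicate block and leaving out each library. Y-linked genes, H2-L, Flg, Snrpn and Hoxd4 were not analysed here. A few genes of the lists are not reported here; the list counts include them.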

Additional observations from a re-analysis of the deposited data

How the results depend on the processing

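The counts of calls over all genes kept within 1.5 times under every alternative run. For single lists 75 values (counts of members called, medians) moved, among them the mitotic, interferon and DNA repair counts. A count was taken as moved when it changed by more than 1.5 times. A median was taken as moved when it shifted by more than the spread of the list's median between libraries. Leaving out 1 library gave 3335 to 4120 higher and 3965 to 4531 lower genes, and 1027 to 1136 and 1490 to 1590 at 4-fold or more. The aliquot numbers did not pair the libraries (correlations of same-numbered deviations 0.044, 0.002 and 0.013); with a replicate block 3769 genes were higher and 4352 lower, and the calls of Csf1 and Tgfb1 were lost (adjusted p 0.063 and 0.055) and Epcam gained one (adjusted p = 0.02), which DESeq2 also gave it (0.049). With off set below 0.5 CPM there were 92 and 170 switch genes in place of 38 and 111, and with runs of at least 4 genes 26 in place of 14; looser rules admit more. The log2 changes of 2 genes changed sign, neither of them called: leaving out 1 library gave Cdkn1a -0.28 to 0.04 and Nnt -0.17 to 0.02. Among named genes 12 lost their call under at least 1 alternative (45 pairs of gene and setting), and 3 pairs gained one. Depth limits genes near 0: 3 counts in 1 library are 0.0826 to 0.109 CPM.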
